A study of Mus musculus with 4 samples.

Results

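Genes of fat cells were read on kidney arrays of diabetic and nondiabetic mice with or without uninephrectomy, the removal of 1 kidney. The set holds 10 genes, Car3, Adipoq, Fabp4, Cfd, Retn, Lep, Cidec, Thrsp, Plin1 and Plin4, out of 18193 genes named on the arrays. They were chosen by name as adipocyte genes with their lower signal in uninephrectomised kidneys on these same arrays already known. The levels and differences below are therefore descriptions, with no test. The probe annotation used here names 16 probe sets of 8 of these genes, while Cfd and Plin1 have no named probe set and are not analysed here.

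The mice were females on the FVB/NJ background aged 4.5 months. Diabetic animals carried the OVE26 transgene, which acts in pancreatic beta cells and makes the mice diabetic early in life, and nondiabetic animals were littermates without it. Surgery at 2 months was either uninephrectomy or a sham operation, and kidneys were perfused with saline and taken 10 weeks later. This gave 4 groups, sham and uninephrectomy in nondiabetic and in diabetic animals. A pool of RNA from 4 mice per group was put on 1 array, so no value carries a replicate error and no p-value is given. How fat around the kidney was handled at harvest is not given in the sources used here.

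White adipocytes store triglyceride in a single large droplet and secrete hormones. The droplet is coated by perilipins and enlarged by CIDE proteins, which pass lipid from droplet to droplet. In the kidney, fat cells lie around the capsule and in the renal sinus, while tubule cells hold only small droplets coated mainly by other perilipins. In RNA of bulk tissue, fewer cells of a type and less RNA per cell cannot be told apart.

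As most of the measured genes were lower on the same arrays, stretches of their promoters are shown, from the RefSeq promoter table of build GRCm38.p6. The table held a window for 8 of the 10 genes (9 windows, as Cidec has a pair of starts). Car3 and Fabp4 had none. Each stretch is the 250 bases before the annotated start, read 5′ to 3′ on the gene's own strand. The 4 shown belong to the hormone genes Adipoq (chr16:23146286-23146535, plus strand) and Retn (chr8:3655520-3655769, plus strand), the lipogenic gene Thrsp (chr7:97417551-97417800, minus strand) and the droplet gene Cidec (downstream start, chr6:113434765-113435014, minus strand). Capitals mark a match to one of the 5 motifs described after the sequences.
Adipoq: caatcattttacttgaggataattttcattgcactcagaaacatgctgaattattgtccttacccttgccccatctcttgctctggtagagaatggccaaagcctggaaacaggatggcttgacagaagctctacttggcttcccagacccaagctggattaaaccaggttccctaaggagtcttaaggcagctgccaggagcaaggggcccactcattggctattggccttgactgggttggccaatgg
Retn: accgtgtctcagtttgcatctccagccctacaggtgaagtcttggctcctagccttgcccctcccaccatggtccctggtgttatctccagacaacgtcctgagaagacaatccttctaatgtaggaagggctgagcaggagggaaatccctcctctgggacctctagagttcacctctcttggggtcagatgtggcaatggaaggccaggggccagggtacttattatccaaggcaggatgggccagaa
Thrsp: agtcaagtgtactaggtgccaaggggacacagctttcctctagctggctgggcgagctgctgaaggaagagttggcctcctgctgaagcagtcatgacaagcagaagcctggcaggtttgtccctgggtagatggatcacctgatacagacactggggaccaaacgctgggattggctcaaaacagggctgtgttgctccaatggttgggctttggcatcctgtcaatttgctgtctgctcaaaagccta
Cidec: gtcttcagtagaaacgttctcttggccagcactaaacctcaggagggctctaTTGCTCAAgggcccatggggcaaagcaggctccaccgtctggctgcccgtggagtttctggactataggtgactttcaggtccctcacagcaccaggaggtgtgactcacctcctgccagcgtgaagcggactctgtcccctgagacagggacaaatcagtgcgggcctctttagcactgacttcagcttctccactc

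The motifs were searched on both strands. The core TTGCNNAA, bound by C/EBP factors of adipocyte differentiation, occurred in 3 of the 9 windows, those of Cidec, Lep and Plin1, and in 9.56% of all 32851 windows in the table. In Cidec the match TTGCTCAA lay 198 to 191 bases before the start, and in Lep the match TTGCGCAA lay 55 to 48 bases before it. Plin1 held a pair of matches, TTGCCTAA and TTGCCCAA. Plin1 was not measured on the arrays, and Lep and Cidec lay below the expression level defined below. The windows of the expressed genes Adipoq, Retn, Thrsp and Plin4 held no match, so no link between this core and the lower signals is read. The nuclear receptor core AGGTCA occurred in 0 of the 9 windows against 14.0% of all windows, and the direct repeat of this core spaced by 1 base in 0 against 0.0335%. The E-box CACGTG (6.02% of all windows) and the TATA box letters TATAAA (12.4%) also occurred in 0 of the 9. The direct repeat contains the core, so those counts overlap. A match describes letters in this window and is not a measured binding site.

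All values are linear array signals as deposited. Differences are on the log2(signal + 26.4) scale, where the offset of 26.4 is the 20th percentile of all signals. It shrinks the differences of dim genes, so plain ratios of signals are given beside them. A difference of at least 2-fold on this scale is called. A gene counts as expressed at a mean log2 value of at least 7.06, the median over all probe sets, which corresponds to a signal of 107.07. Of the 8 measured genes, 6 reached this level and Lep and Cidec did not. Where a gene had several probe sets, the one highest on average describes it, and other probe sets are given separately.

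In uninephrectomised kidneys the signals of all 8 measured genes were lower than in sham kidneys of the same diabetes status, as were 23.7% of all genes (24.8% of expressed genes) in both arms. This count takes signs only and includes Lep, which was dim on every array. For Fabp4 and Lep in diabetic mice the difference was -0.02 and -0.06, and it turned to 0.06 and 0.02 with median centring of the arrays, to 0.04 for Lep with quantile normalisation and to 0.13 for Fabp4 with the mean of its probe sets. In nondiabetic mice 4 of the 8 genes, Adipoq, Car3, Thrsp and Cidec, were at least 2-fold lower, where 2.17% of all genes were (0.518% of the 11197 expressed genes). In diabetic mice 5 of 8 were, the same 4 and Retn, where 4.71% of all genes were (0.661% of expressed genes). None was at least 2-fold higher in either arm, where 4.66% of all genes (0.661% of expressed genes) in nondiabetic and 3.17% (1.48%) in diabetic mice were. The median difference of the 8 genes was -1.16 in nondiabetic and -1.12 in diabetic mice, against 0.04 and -0.04 over all genes. Over the 6 expressed genes, without Lep and Cidec, it was -1.52 and -1.12. These contrasts are the ones in which the genes were noticed, so the counts lend the pattern no support.

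**Figure D1:**
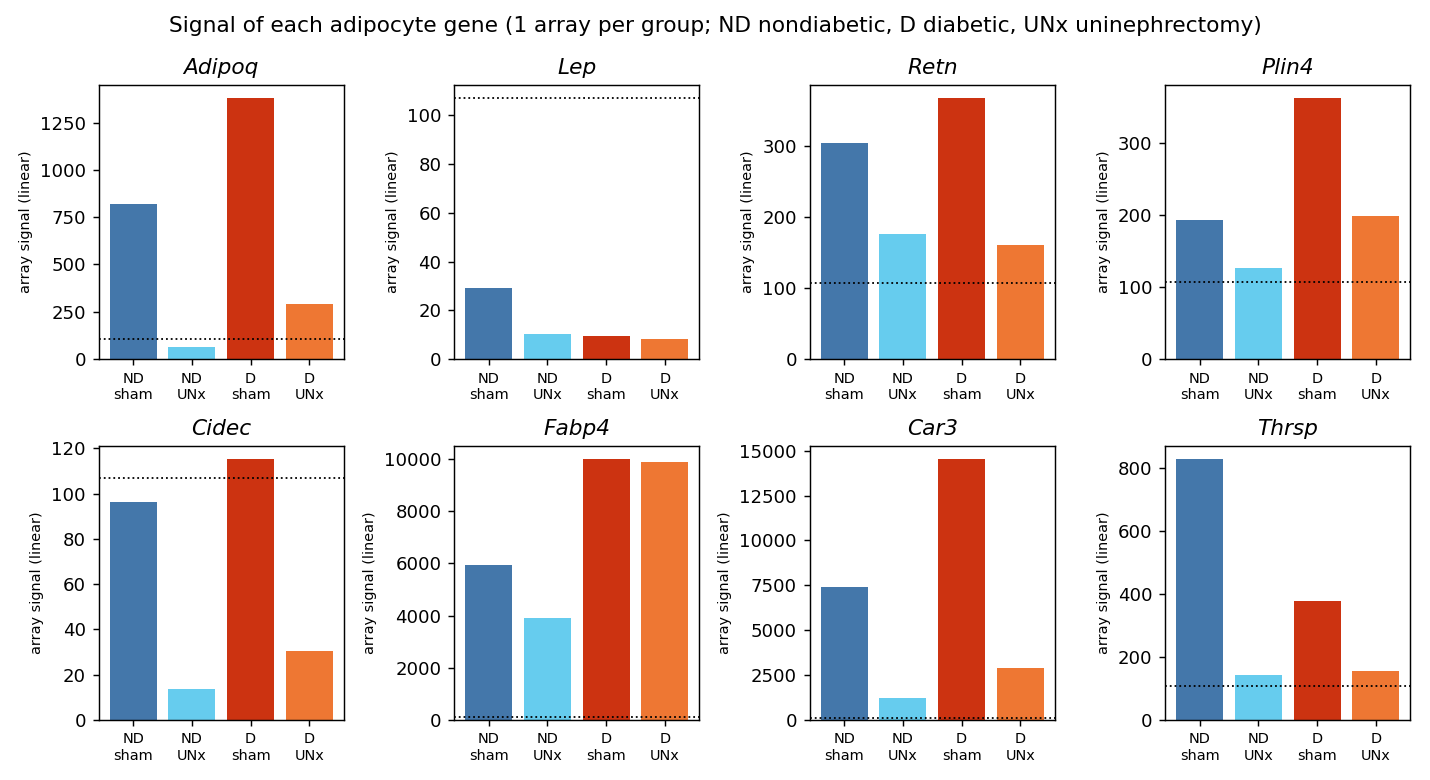
Linear array signal of each measured adipocyte gene (brightest probe set) in the 4 groups, 1 array per group; the dotted line is the expression level of 107.07 and the vertical scales differ between genes. In nondiabetic mice Adipoq stood at 817.3 in sham and 66.2 in uninephrectomised kidneys and Car3 at 7397.7 and 1228.9, while Fabp4 was nearly equal on both diabetic arrays, at 10019.9 and 9898.8.

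Among the secreted products, Adipoq encodes adiponectin, the hormone of fat cells that raises insulin sensitivity. Its signal (probe set 1422651_at) was 817.3 in nondiabetic sham, 66.2 in nondiabetic uninephrectomy, 1379.8 in diabetic sham and 293.5 in diabetic uninephrectomy kidneys. Both sham arrays were above both uninephrectomy arrays, and within each kind of surgery the diabetic array was higher. The sham signal was 12.3 times the uninephrectomy signal in nondiabetic mice (log2 difference -3.19) and 4.70 times in diabetic mice (-2.14). In nondiabetic mice this was the lowest difference of all 18193 genes. The nondiabetic uninephrectomy signal lay below the expression level, so the size of that difference depends on the offset and ranged from -3.61 to -2.68 over the alternatives.

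Retn encodes resistin, a small cysteine-rich protein that mouse fat cells secrete. Its signal (1449182_at) was 304.7 in nondiabetic sham, 176.9 in nondiabetic uninephrectomy, 368.3 in diabetic sham and 161.5 in diabetic uninephrectomy kidneys. Both sham arrays were again above both uninephrectomy arrays, but here the diabetic uninephrectomy array was the lowest. Sham was 1.72 times uninephrectomy in nondiabetic mice (log2 difference -0.70) and 2.28 times in diabetic mice (-1.07, or -0.99 with median centring, which falls short of 2-fold).

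Lep encodes leptin, the satiety hormone whose level follows fat mass. Its signal (1422582_at) was 29.1 in nondiabetic sham, 10.4 in nondiabetic uninephrectomy, 9.6 in diabetic sham and 8.1 in diabetic uninephrectomy kidneys. All 4 values lay far below the expression level and near or below the 20th percentile of their arrays, which ranged from 23.3 to 30.1, so apart from their signs in the counts over all 8 genes no order among them is read. Leptin RNA thus stayed below the expression level on every array.

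Among lipid droplet proteins, Cidec promotes fusion and growth of droplets in white fat. Its signal (1452260_at) was 96.1 in nondiabetic sham, 13.8 in nondiabetic uninephrectomy, 115.4 in diabetic sham and 30.3 in diabetic uninephrectomy kidneys. It was dim, above the expression level only in diabetic sham kidneys, and both sham arrays were above both uninephrectomy arrays. Sham was 6.96 times uninephrectomy in nondiabetic mice (log2 difference -1.61) and 3.81 times in diabetic mice (-1.32). With the larger offset of 72.5, the 40th percentile, these were -0.97 and -0.87 and no longer reached 2-fold.

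Plin4, a perilipin that coats small nascent droplets, differed less. Its signal (1418595_at) was 193.8 in nondiabetic sham, 126.1 in nondiabetic uninephrectomy, 363.1 in diabetic sham and 198.9 in diabetic uninephrectomy kidneys. Nondiabetic sham and diabetic uninephrectomy kidneys were nearly equal, so for this gene the sham and uninephrectomy arrays overlapped across diabetes status. Sham was 1.54 times uninephrectomy in nondiabetic mice (log2 difference -0.53) and 1.83 times in diabetic mice (-0.79), both short of 2-fold.

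Among cytosolic proteins, Car3, a carbonic anhydrase abundant in adipocytes and skeletal muscle, followed Adipoq. Its brightest probe set (1449434_at) read 7397.7 in nondiabetic sham, 1228.9 in nondiabetic uninephrectomy, 14557.5 in diabetic sham and 2874.3 in diabetic uninephrectomy kidneys. Both sham arrays were well above both uninephrectomy arrays. Sham was 6.02 times uninephrectomy in nondiabetic and 5.06 times in diabetic mice (log2 differences of -2.56 and -2.33). A second Car3 probe set, 1460256_at, read 1032.2, 217.8, 1504.9 and 323.3 in the same order of groups, with differences of -2.12 and -2.13. The remaining pair did not share this: 1430584_s_at stayed between 125.8 and 149.0, and 1453588_at was near background, between 3.3 and 38.6. With the mean of all 4 probe sets the Car3 differences were -0.86 and -1.33.

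Fabp4, the fatty acid binding protein of adipocytes that is also made by capillary endothelium and macrophages, departed from the other genes. Its signal (1417023_a_at) was 5923.4 in nondiabetic sham, 3908.7 in nondiabetic uninephrectomy, 10019.9 in diabetic sham and 9898.8 in diabetic uninephrectomy kidneys. The arrays separated by diabetes, not by surgery. Sham was 1.52 times uninephrectomy in nondiabetic mice (log2 difference -0.60) and 1.01 times in diabetic mice (-0.02). The probe set 1451263_a_at read 2478.6, 2102.7, 3949.1 and 5832.7 in the same order of groups, with differences of -0.23 and 0.56, so in diabetic mice it was higher after uninephrectomy. The other 2 probe sets of Fabp4 differed by -0.44 and -0.14 in nondiabetic and by 0.13 and -0.16 in diabetic mice.

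Thrsp encodes Spot 14, a nuclear protein that promotes fatty acid synthesis in fat, liver and mammary gland. Its signal (1424737_at) was 829.2 in nondiabetic sham, 143.6 in nondiabetic uninephrectomy, 376.5 in diabetic sham and 154.0 in diabetic uninephrectomy kidneys. Nondiabetic sham kidneys were highest and the uninephrectomy arrays were close to each other. Sham was 5.77 times uninephrectomy in nondiabetic mice (log2 difference -2.33) and 2.44 times in diabetic mice (-1.16). The probe set 1422973_a_at was also lower after uninephrectomy in both arms, at 267.3, 112.2, 150.8 and 90.5 (differences of -1.08 and -0.60). Its lowest array was diabetic uninephrectomy, whereas that of 1424737_at was nondiabetic uninephrectomy. The third, 1444166_at, lay between 3.8 and 18.1, and with the mean of all 3 probe sets the diabetic difference was -0.66.

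Over all 16 probe sets, 11 were lower after uninephrectomy in both arms, as were 24.4% of all named probe sets. Of the 8 brightest probe sets, 6 were lowest in nondiabetic uninephrectomy kidneys (Adipoq, Plin4, Cidec, Fabp4, Car3 and Thrsp), as were 21.5% of all genes. In turn 6 were highest in diabetic sham kidneys (Adipoq, Retn, Plin4, Cidec, Fabp4 and Car3), as were 26.7% of all genes.

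**Figure D2:**
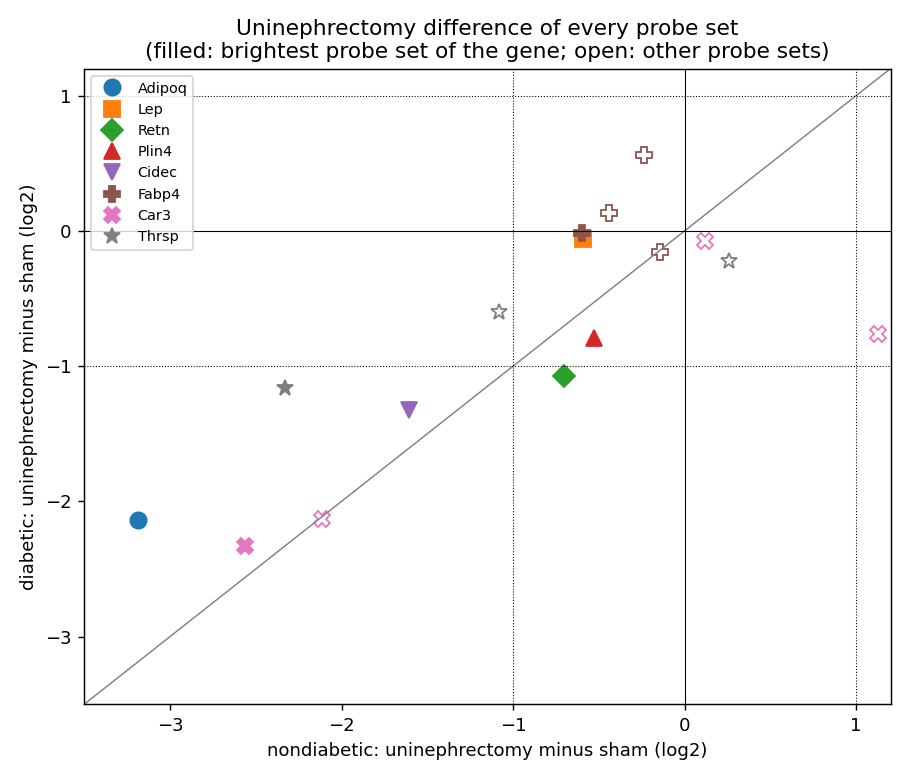
Log2 difference between uninephrectomy and sham for each of the 16 probe sets, nondiabetic mice on the horizontal axis and diabetic mice on the vertical axis; filled symbols are the brightest probe set of a gene, open symbols its other probe sets, the diagonal marks equal differences and dotted lines mark 2-fold. Adipoq and a pair of Car3 probe sets lie at the lower left below -2 on both axes, while Fabp4 and Lep lie near 0 on the vertical axis, where median centring moves both just above 0.

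Diabetes was compared within each kind of surgery. These comparisons share arrays with the ones above, so each gene's values are set side by side and the patterns are not counted as separate evidence. In sham kidneys 0 of the 8 genes were at least 2-fold higher in diabetic than in nondiabetic mice, where 4.68% of all genes were (0.786% of expressed genes). Thrsp was at least 2-fold lower, with a log2 difference of -1.09, where 2.43% of all genes were (0.447% of expressed genes), but its mean over 3 probe sets differed by -0.42. The other sham differences were 0.97 for Car3, 0.82 for Plin4, 0.76 for Fabp4, 0.74 for Adipoq, 0.25 for Retn, 0.21 for Cidec and -0.62 for the dim Lep.

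In uninephrectomised kidneys 3 of the 8 genes were at least 2-fold higher in diabetic mice, where 3.61% of all genes were (2.14% of expressed genes). They were Adipoq (log2 difference 1.79), Fabp4 (1.33) and Car3 (1.21, but 0.11 over the mean of its 4 probe sets). None was at least 2-fold lower, where 4.95% of all genes were (1.03% of expressed genes). Plin4 differed by 0.56, Cidec by 0.50, Thrsp by 0.09 (-0.03 over the mean of its probe sets), Lep by -0.09 (0.03 with median centring) and Retn by -0.11 (0.01 with median centring). The median of the 8 was 0.50 in sham and 0.53 in uninephrectomised kidneys, against 0.04 and -0.05 over all genes. All 4 Fabp4 probe sets were higher in diabetic mice in both kinds of surgery, by 0.33 to 0.76 in sham and by 0.67 to 1.46 in uninephrectomised kidneys.

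**Figure D3:**
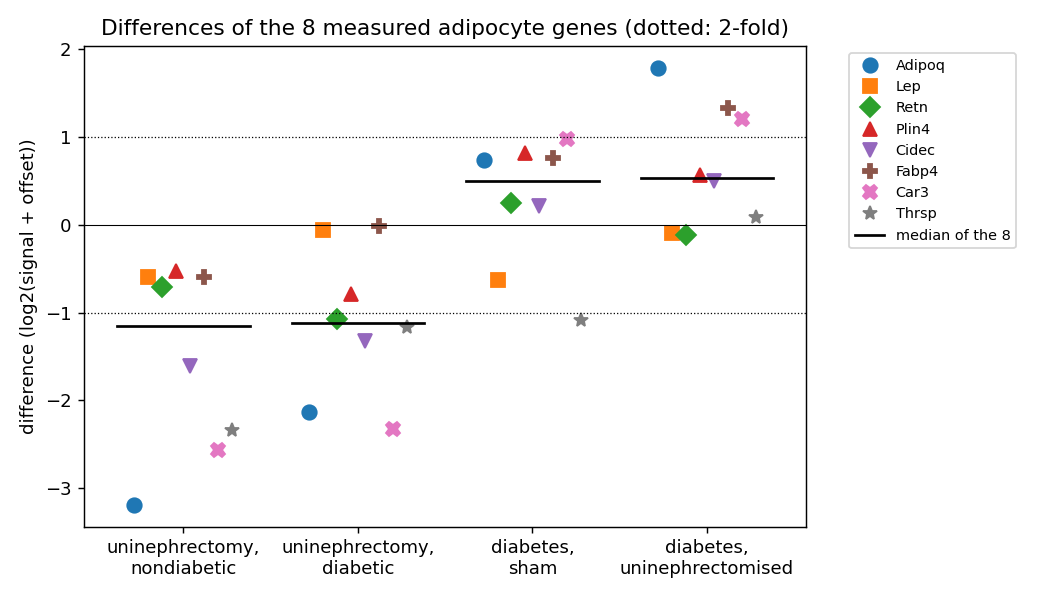
Log2 differences of the 8 measured genes (symbols) in the 4 comparisons, with their median as a black bar and 2-fold as dotted lines; each point is a difference between 2 arrays with no replicates. The median bars lie at -1.16 and -1.12 for uninephrectomy and at 0.50 and 0.53 for diabetes, and Thrsp lies below 0 for diabetes in sham kidneys, where Adipoq, Car3, Fabp4 and Plin4 lie above it.

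Set against its own level in nondiabetic sham kidneys, diabetic uninephrectomy kidneys held 38.9% of the Car3 signal, 35.9% of Adipoq, 31.5% of Cidec, 53.0% of Retn and 18.6% of Thrsp. For Plin4 the share was 103% and for Fabp4 167%. The genes therefore did not keep a fixed ratio to each other across the arrays.

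Other genes of fat cells were taken from a wider list. Of 25 measured white adipocyte genes 1 was at least 2-fold lower after uninephrectomy in nondiabetic mice, where 2.17% of all genes were. In diabetic mice 0 were, where 4.71% of all genes were. None was at least 2-fold higher in either arm, where 4.66% and 3.17% of all genes were. These counts are near the shares over all genes and are not read as a result about the list. The medians of these 25 genes, -0.22 and -0.27, lay below those of all genes and far above those of the 8 genes. Many of them, such as the lipase gene Lpl and the gluconeogenic gene Pck1, are also made by kidney cells. Aoc3, an amine oxidase of adipocytes and vascular smooth muscle, read 134.2, 40.2, 189.2 and 143.5 in sham and uninephrectomised kidneys of nondiabetic and then of diabetic mice (differences of -1.27 and -0.34 in the nondiabetic and the diabetic arm). Its nondiabetic uninephrectomy signal lay below the expression level, so the size of the nondiabetic difference depends on the offset. Pnpla2, the triglyceride lipase ATGL, read 907.2, 510.6, 1129.9 and 738.5 (-0.80 and -0.60), the same order of the 4 groups as Car3. Acvr1c, an activin receptor of adipocytes, was dim, at 99.8, 39.7, 64.1 and 31.8. With diabetes the medians of this list were -0.05 in sham and 0.02 in uninephrectomised kidneys, against 0.04 and -0.05 over all genes. The largest mean differences with diabetes were those of Trarg1 (1.29 and 1.68) and Nnat (1.46 and 0.62), both with signals of at most 82.3. Aoc3 came next (0.42 and 1.35). In the other direction Npr3 had the lowest mean difference (-0.40 and -1.07).

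After uninephrectomy 3 of 11 brown adipocyte genes were at least 2-fold lower in nondiabetic mice, where 2.17% of all genes were. In the diabetic arm 1 was, where 4.71% of all genes were. Of the 5 expressed genes of this list 1 was at least 2-fold lower in nondiabetic and 0 in diabetic mice. None of the 11 was at least 2-fold higher in either arm, where 4.66% and 3.17% of all genes were. Cidea, the CIDE protein of brown fat, read 254.4, 26.5, 83.1 and 2.9 in sham and uninephrectomised kidneys of nondiabetic and then of diabetic mice, with differences of -2.41 and -1.90. It was not expressed on average and lay below the expression level on all arrays but nondiabetic sham, so the sizes of its differences are set by the offset. Cox8b, a cytochrome oxidase subunit typical of brown fat and muscle, read 712.6, 288.0, 558.8 and 411.8 (-1.23 and -0.42). Ucp1, the uncoupling protein that defines brown fat, was dim too, at 69.1, 6.8, 15.9 and 8.1, with the same limit. Otop1, Zic1, Elovl3 and Dio2, none expressed on average, were higher after uninephrectomy in nondiabetic mice (0.55, 0.59, 0.32 and 0.28). In diabetic mice they differed by 0.70, -0.95, -0.57 and -0.02. The expressed Cox7a1 differed by -0.07 and 0.07. For both Cidea and Ucp1 the nondiabetic sham array was the brightest, as for Thrsp and unlike Adipoq and Car3. The medians of the list, -0.18 and -0.29, were near those of the white adipocyte list.

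Transcription factors of fat cell differentiation had medians of 0.02 and -0.18 over 11 genes. Pparg, their master regulator, was dim, with signals from 15.3 to 82.9, and differed by -1.01 in nondiabetic and 1.39 in diabetic mice. Cebpa, its partner, which the kidney also makes, differed by 0.02 and -0.77, and Klf15 by -0.17 and -0.87. The 13 genes of fatty acid synthesis, in which Thrsp acts, had medians of -0.03 and -0.01 and 0 calls in either arm: Fasn, the fatty acid synthase, differed by -0.42 and -0.01. With diabetes in sham kidneys, where Thrsp was at -1.09, Fasn differed by -0.71 and the desaturase gene Scd1 by -0.81, and the list median was -0.13.

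Close relatives of the genes were read for comparison. Over all genes 6.83% were at least 2-fold different after uninephrectomy in nondiabetic and 7.88% in diabetic mice. Of 7 other lipid droplet proteins 0 were at least 2-fold different after uninephrectomy, and Plin2, the main droplet coat of tubule cells, differed by 0.16 in each arm. Of 12 other carbonic anhydrases 0 were at least 2-fold different in nondiabetic mice, and in diabetic mice only the dim Car1, the red cell isoform, was (-1.07). Car2, the abundant renal isoform, differed by 0.19 and -0.09. Of 6 other fatty acid binding proteins 2 were at least 2-fold higher after uninephrectomy in nondiabetic mice, where 4.66% of all genes were. They were Fabp1 (1.12, and 0.28 in diabetic mice) and the dim Fabp2 (1.49, and -0.29 in diabetic mice). Fabp5, the epidermal form that fat cells also make, differed by -0.19 and 0.22. Of the receptors of these hormones, Adipor1 and Adipor2 bind adiponectin and differed by at most 0.16 in size after uninephrectomy. The leptin receptor gene Lepr differed by -0.53 and 0.14.

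Markers of other cells that a piece of kidney could carry were read beside these values. The sum of signals over 10 skeletal muscle markers was 346.9 in nondiabetic sham, 420.1 in nondiabetic uninephrectomy, 426.6 in diabetic sham and 577.2 in diabetic uninephrectomy kidneys. Of these markers 9 were not expressed, so the sum is mostly near-background signal and no direction is read from it. The muscle actin gene Acta1 read 2.5 to 31.0. The medians of the muscle list after uninephrectomy were 0.25 in nondiabetic and 0.33 in diabetic mice. The myosin gene Myh1, also dim, had the lowest difference of the list in both arms (-0.78 and -0.51), against those medians. It read 104.3, 49.9, 151.4 and 98.6 in the same order of groups, and no direction is read from it either. Over 6 mesothelium markers the medians were -0.27 and -0.48. Of these Upk3b, a gene of the serous lining, read 113.6, 24.5, 191.6 and 120.7 in the same order of groups (differences of -1.46 and -0.57), while Lrrn4 and Msln were at most 51.1. The expressed Upk1b read 311, 184.8, 336.4 and 284.9 (-0.68 and -0.22). Gpm6a, the other expressed marker, differed by -0.29 and 0.50, and the dim Bnc1 by 0.89 and -0.79. The mesothelial sum, mostly Gpm6a, was 5434, 4351.8, 4437.3 and 5837.2. Over 6 fibroblast markers the medians were -0.15 and 0.06, and Pdgfra, a receptor of stromal and adipocyte progenitor cells, differed by -0.61 and -0.51. With diabetes the fibroblast medians were 0.29 in sham kidneys, where all 6 markers were higher by at least 0.21, and 0.46 in uninephrectomised kidneys. These medians were 0.50 and 0.53 for the 8 adipocyte genes and -0.05 and 0.02 for the 25 other white adipocyte genes. For the 11 brown adipocyte genes they were -0.17 and 0.04. The mesothelial medians with diabetes were -0.01 and -0.05. The part of muscle, mesothelium and stroma in the adipocyte values was not tested.

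Over 7 endothelial markers the medians were -0.05 and -0.12, with 0 calls in either arm. With diabetes the endothelial medians were 0.06 and -0.17, where Fabp4 differed by 0.76 and 1.33. Single endothelial markers ran both ways, with Gpihbp1 at 0.41 and 0.36 and Tek at -0.11 and -0.21. Macrophage markers were not read here, and the part of either cell type in the Fabp4 values was not tested. Of 11 adrenal markers 1 was at least 2-fold higher after uninephrectomy in nondiabetic mice, where 4.66% of all genes were. In diabetic mice 2 were at least 2-fold lower, where 4.71% of all genes were. All of these were dim, with Cyp11b1 at 23.8 to 109.9. Lymphocyte markers (7 genes) and exocrine pancreas markers (5 genes) had 0 expressed members each. All 9 measured kidney markers were expressed, with Umod of the loop of Henle between 36353.2 and 48279 and Lrp2 of the proximal tubule between 14838.6 and 22010.7, while Nphs1 of podocytes was dimmer, between 151.8 and 420.5. The kidney medians after uninephrectomy were 0.11 in nondiabetic and -0.35 in diabetic mice, and with diabetes -0.06 in sham and -0.58 in uninephrectomised kidneys. Their part in the adipocyte values was not tested.

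**Figure D4:**
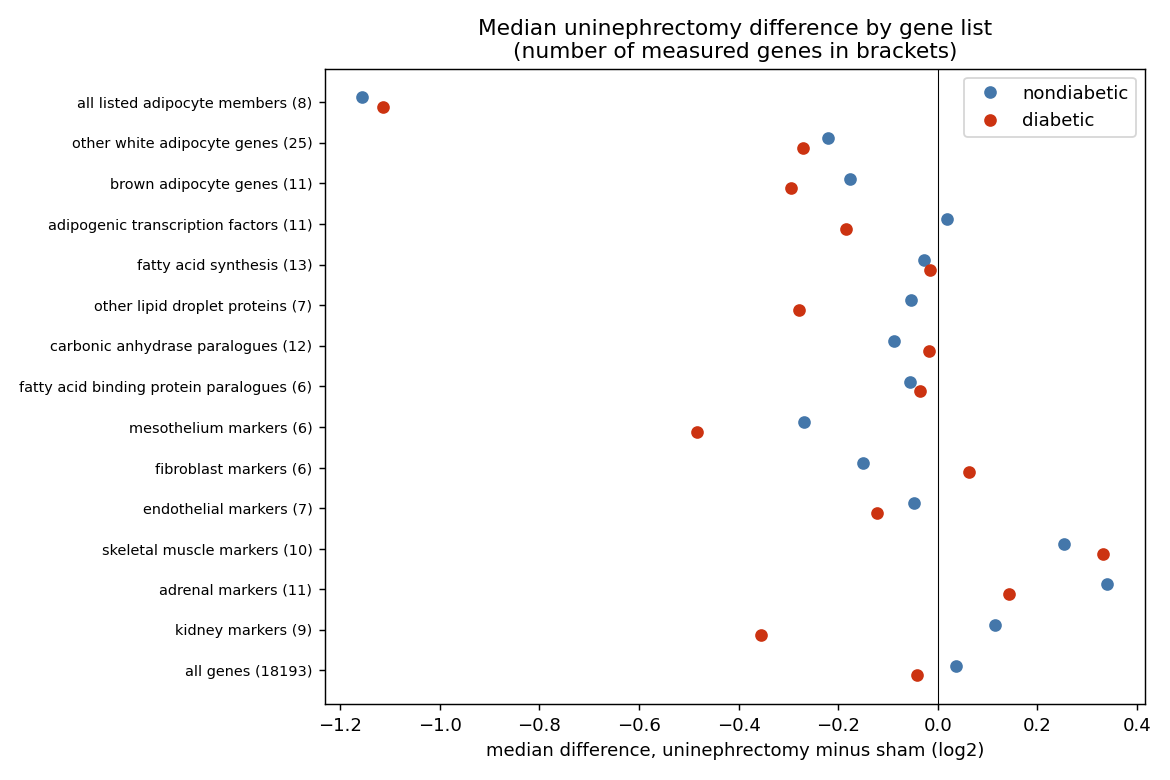
Median log2 difference between uninephrectomy and sham for each gene list, nondiabetic mice in blue and diabetic mice in red, with the number of measured genes in brackets. The 8 adipocyte genes lie at -1.16 and -1.12, the other white adipocyte genes at -0.22 and -0.27, and all genes at 0.04 and -0.04.

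Array quality was read beside these genes. The ratio of the 3′ to the 5′ control probe set of Actb, which rises as RNA breaks down, was 2.78 in nondiabetic sham, 3.49 in nondiabetic uninephrectomy, 3.72 in diabetic sham and 3.38 in diabetic uninephrectomy kidneys. The Actb ratio was lowest in nondiabetic sham kidneys. The same ratio of Gapdh was 0.90, 0.99, 1.01 and 0.91 in the same order of groups, so it varied little. The 18S ribosomal RNA signal relative to nondiabetic sham kidneys was 1.02 in nondiabetic uninephrectomy, 1.32 in diabetic sham and 1.88 in diabetic uninephrectomy kidneys. The part of RNA quality and of ribosomal RNA in the results was not tested.

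Likeness to the 8 genes was measured as the root mean square difference, over the 4 arrays, between centred log2 values and the median centred profile of the 8. Among the 8 themselves it ran from 0.11 for Cidec to 0.88 for Adipoq. The nearest other expressed genes were Fam160a1 (0.13), the organic anion exporter gene Abcc3 (0.14), Prkar2b (0.15), a regulatory subunit of protein kinase A, and Itih1 (0.16), followed by Bst1, Ptprn2, Tchp and 0610009L18Rik at 0.24 to 0.26. Prkar2b read 184.5, 56.5, 182.8 and 101.0 in sham and uninephrectomised kidneys of nondiabetic and then of diabetic mice. Both of its uninephrectomy signals lay below the expression level. So did the nondiabetic uninephrectomy signals of Fam160a1 (66) and Itih1 (82.6), so the likeness values of these genes depend on the offset. Nearest to Car3 alone were Fam160a1 (0.63), Krtap12-1 (0.67), Hdc (0.69), Igf2 (0.80) and Abcc3 (0.80). Igf2, a fetal growth factor gene, read 3521.3, 1981.8, 7191.8 and 3791.8, which is higher in diabetic kidneys and lower after uninephrectomy, as for Car3.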

How the data were processed

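Frozen kidney was extracted with TriZol, and 100 ng of each pool of 4 mice was labelled with biotin, per the labels' protocols. The deposited values are linear intensity values of 45101 probe sets; how the authors summarised probes is not stated in the labels. The mean of each array without its highest and lowest 2% was 500.003, so arrays had been scaled to a common level, and no further normalisation was applied. The median signals of the 4 arrays lay between 106.8 and 119.3, and the number of arrays limits the precision.

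Platform annotation gave 1 symbol for 34945 of 45037 probe sets that are not controls, several for 932 and none for 9160; only the first were used. Symbols were checked by Entrez number in RefSeq (GRCm38.p6), which held 34741 and changed 0. Calculations used Python 3.11.15, numpy 2.4.6 and pandas 2.3.3. The step that counts 2-fold differences was tested on simulated data. With 1 array per group no test was run.

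The genes and all lists were chosen with earlier results of these data known. Named were the 10 genes with every probe set, the 8 genes most like the set and the 5 most like Car3. From each other list, genes were drawn from the 3 largest in size by mean uninephrectomy difference. For adipocyte lists the mean diabetes difference was used as well. Not all genes that ranked so were described: Actn3, Tnni2, Plin5, C3ar1, Cebpd and Srebf1 are examples left out. Further relatives and control genes were named after their values were seen. These were Lpl, Pck1, Pparg, Fasn, Scd1, Plin2, Car2, Fabp5, Adipor1, Adipor2, Myh1, Lrrn4, Gpm6a and kidney markers. Npr3, Otop1, Zic1, Cox7a1, Bnc1, Gpihbp1 and Tek were named in the same way. Alternatives were quantile normalisation, median centring, offsets of 1 and 72.5, the mean of all probe sets and a 1.5-fold threshold.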

Additional observations from a re-analysis of the deposited data

How the results depend on the processing

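With 1 array per group nothing could be left out and no spread between animals is measured; differences of dim genes are set by the offset. No paired analysis was possible because each group is 1 array and no test was run. The median uninephrectomy difference of the 8 genes was negative under every alternative in both arms. In nondiabetic mice it was -0.78 with the offset of 72.5 and -0.78 with the mean of all probe sets, short of 2-fold. In diabetic mice it was -0.89 with the offset of 72.5, where 2 genes in place of 5 were at least 2-fold lower, and -0.93 with the mean of all probe sets. The cause was not tested beyond the construction of these settings, which shrink dim differences or include dim probe sets. At 1.5-fold 7 genes were lower in nondiabetic mice, where 6.66% of all genes were. With diabetes in sham kidneys 2 genes were at least 2-fold lower with the offset of 1 and 0 with the mean of all probe sets, and at 1.5-fold 4 were higher and 2 lower, where 11.9% and 7.13% of all genes were. Shares of all genes under the other offsets and with the mean of all probe sets are not given here. Restricting to the 6 expressed genes was an alternative chosen after seeing the data. It left 3 genes at least 2-fold lower after uninephrectomy in nondiabetic mice, where 0.518% of expressed genes were. In diabetic mice it left 4, where 0.661% of expressed genes were. Of 160 recomputed differences of single genes 140 kept their direction and their side of 2-fold, and 0 that had reached 2-fold changed sign.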

Other observations

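Of 11197 expressed genes 6 were at least 2-fold lower after uninephrectomy in both arms. These were Adipoq, Car3 and Thrsp together with Fam160a1, Krtap12-1 and Slc13a4, of which the last was named after its values were seen. Krtap12-1, a keratin-associated protein gene, read 235.5, 53.3, 229.4 and 52.6 in sham and uninephrectomised kidneys of nondiabetic and then of diabetic mice, so it followed surgery with hardly any difference by diabetes. Both of its uninephrectomy signals lay below the expression level, so the sizes of its differences depend on the offset. Slc13a4, a sulfate transporter gene, differed by -1.17 in nondiabetic and -1.42 in diabetic mice after uninephrectomy, and was lower with diabetes in both kinds of surgery (-0.63 and -0.88), opposite to Car3 and Adipoq. Hdc, which encodes the histamine-forming enzyme, read 946.5, 113.0, 698.1 and 496.2, with a difference of -2.80 in nondiabetic and -0.47 in diabetic mice; whether these arms differ was not tested.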
